A study of Mus musculus with 3 samples.

Results

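A set of 10 genes of the endoplasmic reticulum (ER) folding machinery and its stress response was followed through the skin of mice given cyclophosphamide. The 10 genes are the chaperones Hspa5, Hsp90b1, Calr, Sdf2l1 and Dnajb9, the disulphide isomerase Pdia4, the degradation factor Herpud1, and the transcription factors Xbp1, Atf4 and Ddit3. They were found among 20595 UniGene clusters through the cluster's description or through an exact match of its tags to reference transcripts. Of the 10 genes, 9 were listed in at least 1 of 3 tables, and 8 had enough tags to be tested beside 13812 clusters in all. The study took whole skin from C57BL/6 males aged 2 months and used digital gene expression, which counts a polyadenylated transcript through a 21-base tag beginning at CATG, the site of the enzyme NlaIII. The groups were untreated skin (day 0), skin 1 day after an intraperitoneal injection of the alkylating drug cyclophosphamide at 150 mg/kg (day 1), and skin 2 days after it (day 2), with 1 library each. All mice had been depilated 9 days before the injection, which starts synchronous hair growth. The dose is per kg in the series text but per km in the labels of the samples, and how many mice were pooled, if any, is not stated. Untreated skin of days 1 and 2 was not analysed here, so the drug and the time after depilation cannot be told apart.

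Secreted and membrane proteins fold in the ER with the help of lumenal chaperones, and proteins that fail to fold are returned to the cytosol and degraded. When unfolded proteins accumulate, the membrane sensors Ire1, Perk and Atf6 start the unfolded protein response: Ire1 splices the mRNA of Xbp1, Perk favours translation of Atf4, which in turn can induce Ddit3 (CHOP), and cleaved Atf6 joins Xbp1 in raising chaperone transcription. In skin this machinery serves collagen secretion by fibroblasts, lipid and protein handling in sebocytes and keratinocytes, and antibody secretion by plasma cells.

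The tags that carried most of each member's count are shown first because every value below rests on them. Each is written from 5′ to 3′ on the gene's strand, with the NlaIII site in capitals, and was read from the deposited tables. Coordinates are from an exact match to GENCODE M21 transcripts on GRCm38.
Hspa5: CATGacaaaactgattccaag
Hsp90b1: CATGgatcttgctgtagtttt
Calr: CATGtcatctttaactacaag
Pdia4: CATGctctgaatactgaatag
Dnajb9: CATGttatactccatacgagt
Herpud1: CATGgaagtcatagatgcaga
Sdf2l1: CATGcctagtgccaatgctca
Xbp1: CATGaatggcccttagcattt
Atf4: CATGtgatctttttgcccctc

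The Calr tag lies in coding exon 4 of 9 at chr8:84844910-84844930 on the minus strand. It marks the CATG nearest the 3′ end, which in this transcript is still 1616 bases from that end. The Hspa5 tag lies in coding exon 8 of 9 at chr2:34775127-34775147 on the plus strand and marks only the 13th of 21 CATG sites from the 3′ end, 2104 bases from it. The Hsp90b1 tag lies in coding exon 16 of 18 at chr10:86692252-86692272 on the minus strand and marks the 2nd of 11 sites. The Atf4 tag, in coding exon 3 of 3 at chr15:80256763-80256783 on the plus strand, also marks the 2nd site, of 8. The tags of Pdia4 (chr6:47796342-47796362, minus strand), Dnajb9 (chr12:44205983-44206003, minus strand) and Xbp1 (chr11:5525663-5525683, plus strand) lie in the 3′ UTR of the last exon at the 3′-most site. That of Sdf2l1 (chr16:17130583-17130603, minus strand) marks the 3′-most site and is coding, in exon 3 of 3, and that of Herpud1 (chr8:94395104-94395124, plus strand) lies in the 3′ UTR of exon 8 of 8. These tags held 99.1% of the Calr count, 98.0% for Hsp90b1, 90.0% for Pdia4 and 75.9% for Hspa5. Dnajb9 and Sdf2l1 were each counted through 1 tag alone. Because genes were counted at unlike sites, levels are compared between days within a gene and not between genes.

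Tags assigned to clusters numbered 2731787 at day 0, 2859653 at day 1 and 2636804 at day 2, which is 45.3%, 47.1% and 46.5% of all tags the authors kept. The smallest copy number listed was 2, so a gene absent from a table need not have had 0 tags. Levels are given as CPM, tags per 1000000 after TMM scaling over the 3 libraries. Epidermal markers, 4 keratins and loricrin, summed to 11178.2, 15069.4 and 14196.7 CPM at days 0, 1 and 2, with 5 of 5 listed, as a check that the libraries came from skin. With 1 library per day there was no replicate check. The exact test used compares the tags of 2 libraries, not the conditions, and its 95% intervals cover counting error only, without PCR copies or variation between mice. In whole skin, fewer cells of a type and less RNA per cell cannot be told apart.

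Among the chaperones Calr stood higher at both days after the drug, while Hsp90b1 and Dnajb9 stood lower, and Xbp1 was lower at day 2. No member reached the threshold of an adjusted p of 0.001 or less together with a ratio of 2 or more. At day 1 over day 0 the exact conditional binomial test called 0 of 8 members, against 2.79 percent of all clusters tested. At day 2 over day 0 it called 0 of 8, against 6.44 percent, and at day 2 over day 1 it called 0 of 8, against 2.90 percent. An unadjusted p under 0.05 was found for 3 members at day 1 over day 0 (Calr, Dnajb9 and Hsp90b1), where 30.8 percent of all clusters had one. It was found for 4 at day 2 over day 0 (the same 3 and Xbp1, background 36.3 percent) and for 2 at day 2 over day 1 (Calr and Xbp1, background 29.3 percent). edgeR's exact test was also run with a coefficient of variation assumed to be 0.2 or 0.4, at an adjusted p of 0.05 and with no ratio minimum. It called 0 of 8 in each of the 3 comparisons, but it called few clusters at all: 0.210, 1.74 and 0.652 percent with 0.2, and 0.00, 0.0434 and 0.0145 percent with 0.4.

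With the ratio minimum lowered to 1.5, Calr was called higher at day 1 over day 0, 1 of 8 against 7.78 percent of all clusters. Calr higher and Hsp90b1 lower were called at day 2 over day 0, 2 of 8 against 11.9 percent. Xbp1 was called lower at day 2 over day 1, 1 of 8 against 6.56 percent. The median log2 ratio of the 8 members was 0.35 at day 1 over day 0, with 6 positive and 2 negative, against -0.02 for all clusters tested. It was 0.23 at day 2 over day 0, against 0.01 for all clusters, and -0.13 at day 2 over day 1, with 7 of 8 negative, against -0.02. The members differed in direction, since at day 1 over day 0 their log2 ratios ran from -0.71 for Dnajb9 to 0.97 for Calr. The 3 comparisons share libraries, so their values are not independent of each other.

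**Figure D1:**
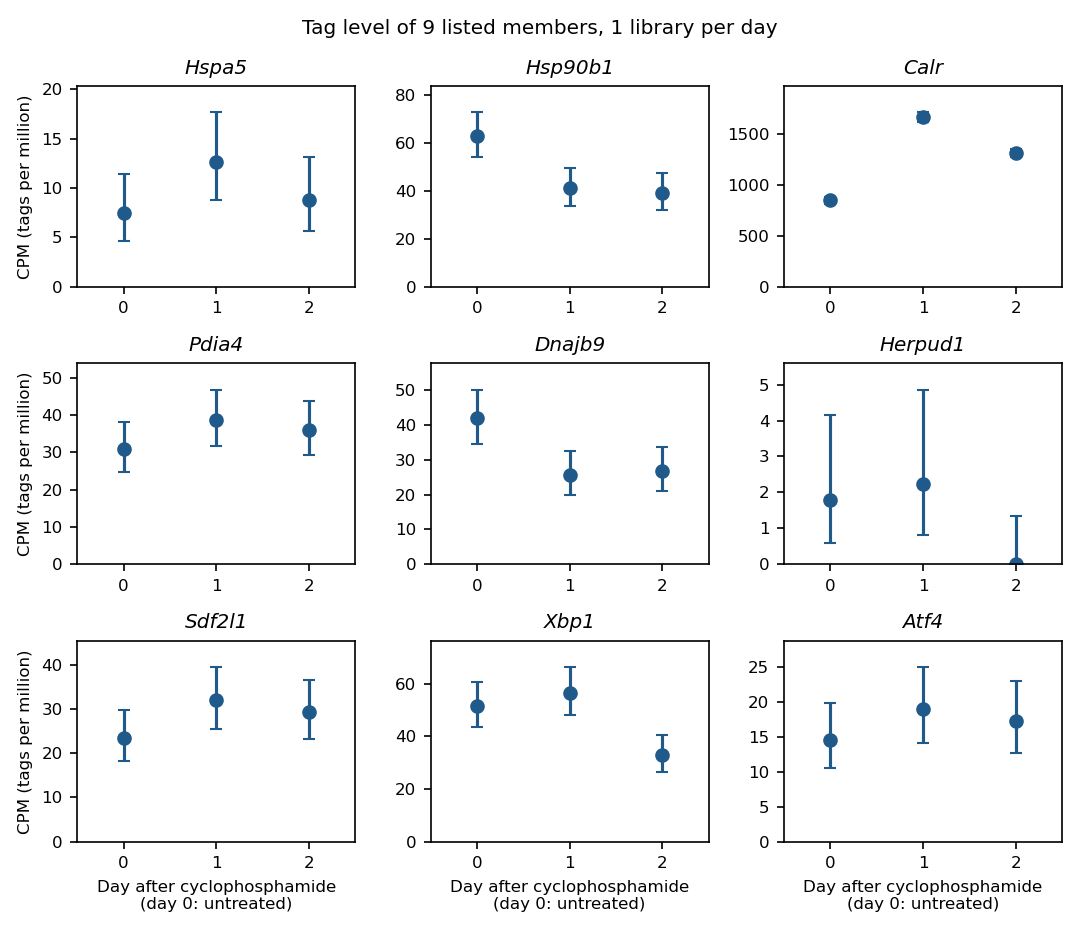
Level of the 9 listed members by day, in CPM (tags per 1000000 after TMM scaling), 1 library per day. Points are the levels and bars exact 95% counting intervals. Each panel has its own vertical axis from 0, and Herpud1 at day 2, which was not listed, is drawn at 0. Calr was highest at day 1, Hsp90b1 and Dnajb9 were highest at day 0, and Xbp1 was lowest at day 2.

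**Figure D2:**
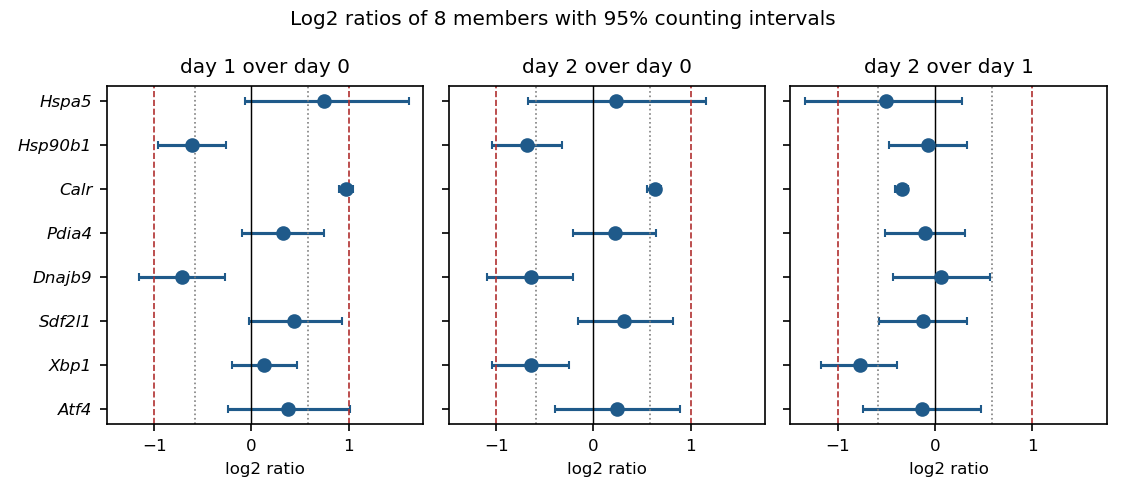
Log2 ratios of the 8 tested members for the 3 comparisons, with the later day on top of the ratio and exact 95% counting intervals as bars. Dashed lines mark a 2-fold ratio and dotted lines a 1.5-fold ratio. The Calr point lies just inside the 2-fold line at day 1 over day 0, and the Hspa5, Pdia4, Sdf2l1 and Atf4 intervals cross 0 in all 3 panels.

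Calr encodes calreticulin, the calcium-binding lectin chaperone that retains glycoproteins in the ER until they are folded. It counted 2384 tags at day 0, 4466 at day 1 and 3568 at day 2, which is 847, 1661 and 1311 CPM. The day 1 level was the highest, day 2 lay between, and the counting intervals of the 3 days did not overlap. Calr was thus 1.96-fold higher at day 1 than at day 0, a log2 ratio of 0.97 (95% interval 0.90 to 1.04, exact test, adjusted p = 3.8e-160), just under the 2-fold minimum. At day 2 it was 1.55-fold higher than at day 0, a log2 ratio of 0.63 (0.55 to 0.70, exact test, adjusted p = 3.8e-60). Between days 2 and 1, its log2 ratio of day 2 over day 1 was -0.34 (-0.41 to -0.28, exact test, adjusted p = 3.3e-24). The leading tag alone counted 2370, 4418 and 3532 copies and gave log2 ratios of 0.96 at day 1 over day 0 and 0.62 at day 2 over day 0.

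Upstream tags of Calr were few. The tag of its 6th and 5′-most CATG lies at chr8:84846779-84846799 on the minus strand. Its first base, the only one placed, is in the 5′ UTR. It counted 2, 13 and 10 copies at days 0, 1 and 2. It is shown because it samples the other end of the transcript.
Calr, 6th site: CATGctcctttcggtgccgct
Its log2 ratio was 2.49 at day 1 over day 0, with an interval of 0.62 to 5.96, which is wide because the day 0 count was 2. A tag of the 2nd site counted 4, 13 and 5 copies, and one of the 5th site counted 2 copies at each of the 3 days. A further 45 tags of the Calr cluster had no exact match to the reference transcript.

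Hsp90b1 encodes Grp94, the ER member of the Hsp90 family, which folds integrins and Toll-like receptors. Its main cluster counted 177 tags at day 0, 111 at day 1 and 107 at day 2, which is 62.9, 41.3 and 39.3 CPM. Day 0 was the highest, and the intervals of days 1 and 2 overlapped almost wholly. The log2 ratio was -0.61 at day 1 over day 0 (-0.96 to -0.26, exact test, adjusted p = 0.0039). It was -0.68 at day 2 over day 0 (-1.04 to -0.32, exact test, adjusted p = 0.00084), which meets the adjusted p but not the 2-fold minimum. For day 2 over day 1 it was -0.07, with an interval of -0.47 to 0.33. A second cluster, from a tag in exon 5 at chr10:86701984-86702004, counted 15, 17 and 5 tags at days 0, 1 and 2. It was not added to the first in these values. With both summed, the log2 ratio was -0.52 at day 1 over day 0 and -0.73 at day 2 over day 0.

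A tag of the opposite strand over the Hsp90b1 3′ UTR went the other way. It belongs to a cluster without a gene symbol and is cut at the same CATG as the gene's own 3′-most site, 33 bases from the transcript end, at chr10:86690869-86690889 on the plus strand. It is shown because adding it changes the Hsp90b1 ratios at both days.
Hsp90b1, opposite strand: CATGacaagattttacaccaa
That cluster counted 124, 198 and 188 tags at days 0, 1 and 2, which is 44.1, 73.6 and 69.1 CPM. Its log2 ratio was 0.74 at day 1 over day 0, with an interval of 0.41 to 1.08, and 0.65 at day 2 over day 0, with an interval of 0.31 to 0.99. Gene-strand tags were thus highest at day 0 and opposite-strand tags lowest at day 0. Both strands were also summed, with the second gene-strand cluster included. The Hsp90b1 log2 ratio was then 0.11 at day 1 over day 0 (-0.12 to 0.34) and -0.03 at day 2 over day 0 (-0.26 to 0.20). The call of Hsp90b1 lower at a ratio of 1.5 thus holds for the gene strand alone. It also depends on the scaling, as given below. From which transcript the opposite-strand tag comes was not tested.

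Hspa5 encodes BiP (Grp78), the Hsp70 chaperone of the ER lumen, which also holds the sensors inactive in resting cells. Its gene-strand tags counted 21 at day 0, 34 at day 1 and 24 at day 2, which is 7.46, 12.6 and 8.82 CPM. Day 1 was the highest, and the counting intervals of all 3 days overlapped. The log2 ratio was 0.75 at day 1 over day 0 (-0.07 to 1.62, exact test, adjusted p = 0.22) and 0.23 at day 2 over day 0 (-0.67 to 1.16, exact test, adjusted p = 0.87). At this depth a difference of these sizes was not detectable. These tags came from 4 of 21 sites, and no site nearer the 3′ end than the 13th gave a tag on the gene's strand.

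The deposited tables hold another cluster, described as similar to the 78 kDa glucose-regulated protein, that counted more tags than the gene-strand cluster. All 4 of its tags match the reverse complement of Hspa5 exon 9, at the CATG of its 9th to 12th sites, and the one with most copies lies at chr2:34776270-34776290 on the minus strand. It is shown so that it can be told from the gene-strand tag above.
Hspa5, opposite strand: CATGtgagcaactgctaatga
The cluster counted 77 tags at day 0, 51 at day 1 and 54 at day 2, which is 27.4, 19.0 and 19.8 CPM. Its log2 ratio was -0.53 at day 1 over day 0 (interval -1.07 to -0.00) and -0.46 at day 2 over day 0 (-0.99 to 0.06). The cluster was lowest at day 1, the day on which the gene-strand cluster was highest. Summed over both strands the Hspa5 log2 ratio was -0.14 at day 1 over day 0 and -0.28 at day 2 over day 0, so the sign depends on whether this cluster is read as Hspa5.

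**Figure D3:**
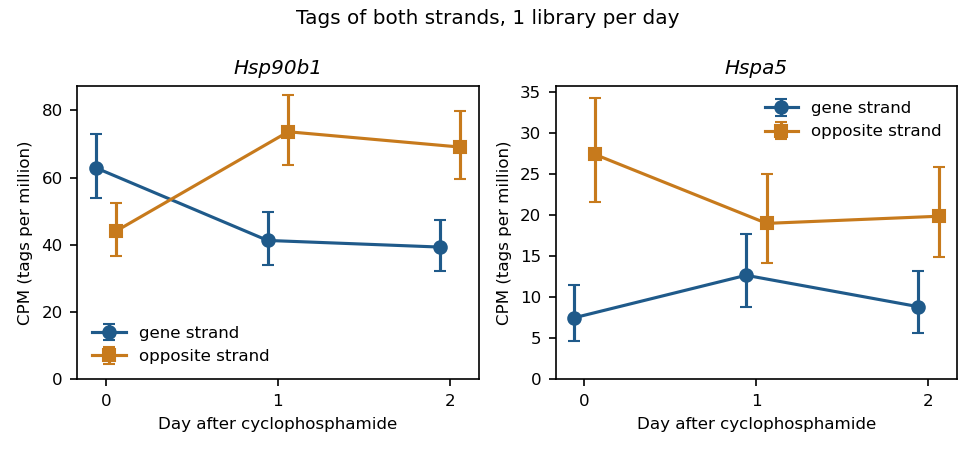
Level of the gene-strand cluster (circles) and the opposite-strand cluster (squares) of Hsp90b1 and Hspa5 by day, in CPM, 1 library per day. Bars are exact 95% counting intervals and lines only join the points. The 2 strands of Hsp90b1 cross between days 0 and 1, while for Hspa5 the opposite strand lies above the gene strand at all 3 days.

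Pdia4 encodes ERp72, a thiol oxidoreductase that forms and reshuffles disulphide bonds. It counted 87, 104 and 98 tags at days 0, 1 and 2, which is 30.9, 38.7 and 36.0 CPM. The days overlapped within their counting intervals, and the log2 ratio was 0.32 at day 1 over day 0 (-0.10 to 0.75) and 0.22 at day 2 over day 0 (-0.21 to 0.65). Sdf2l1, a lumenal protein found in chaperone complexes with BiP, counted 66, 86 and 80 tags at days 0, 1 and 2, which is 23.5, 32.0 and 29.4 CPM. Its log2 ratio was 0.44 at day 1 over day 0 (-0.03 to 0.93, exact test, adjusted p = 0.20) and 0.32 at day 2 over day 0 (-0.16 to 0.82, exact test, adjusted p = 0.39). Both genes were lowest at day 0 and highest at day 1, without a difference that passed the test.

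Dnajb9 encodes ERdj4, a J-domain partner of BiP that acts in ER-associated degradation and in the repression of Ire1. It counted 118 tags at day 0, 69 at day 1 and 73 at day 2, which is 41.9, 25.7 and 26.8 CPM. Day 0 was the highest, and its counting interval did not overlap those of days 1 and 2. The log2 ratio was -0.71 at day 1 over day 0 (-1.16 to -0.27, exact test, adjusted p = 0.0083) and -0.64 at day 2 over day 0 (-1.09 to -0.21, exact test, adjusted p = 0.014). Neither met the adjusted p of 0.001, and at day 2 over day 1 the log2 ratio was 0.06. Herpud1 encodes Herp, a membrane component of the degradation complex of the ER. It counted 5 tags at day 0 and 6 at day 1 and was not listed at day 2, which is too few to test.

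Xbp1 encodes the transcription factor made active by Ire1 splicing, a regulator of secretory cells. It counted 145 tags at day 0, 152 at day 1 and 90 at day 2, which is 51.5, 56.5 and 33.1 CPM. Days 0 and 1 overlapped, and the day 2 interval lay below both. The log2 ratio was 0.13 at day 1 over day 0 (-0.20 to 0.47), -0.64 at day 2 over day 0 (-1.04 to -0.25, exact test, adjusted p = 0.0054) and -0.77 at day 2 over day 1 (-1.17 to -0.39, exact test, adjusted p = 0.00059). The last of these met the adjusted p but not the 2-fold minimum. The spliced and unspliced forms were not separated here.

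Tags of Xbp1 came from 5 of 8 sites, and the lower day 2 count came mostly from the 3′-most site. That site counted 115, 117 and 59 copies at days 0, 1 and 2, with a log2 ratio of -0.91 at day 2 over day 0 (-1.39 to -0.45) and an interval of -1.48 to -0.54 at day 2 over day 1. The CATG only 9 bases upstream of it counted 6, 3 and 12 copies, and its tag at chr11:5525654-5525674 is shown because it overlaps the leading tag.
Xbp1, 2nd site: CATGggattcatgaatggccc
Of the copies at these 2 sites, the upstream one held 5.0% of 121 at day 0, 2.5% of 120 at day 1 and 16.9% of 71 at day 2. The tag of the 4th site counted 16, 21 and 12 copies, also lowest at day 2. Why the upstream site's share differed at day 2 was not tested.

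Atf4, the factor translated under Perk and other eIF2α kinases, counted 41, 51 and 47 tags at days 0, 1 and 2, which is 14.6, 19.0 and 17.3 CPM. The intervals of the 3 days overlapped, with log2 ratios of 0.38 at day 1 over day 0 (-0.24 to 1.01) and 0.24 at day 2 over day 0 (-0.39 to 0.89). Since Atf4 is controlled largely at translation, its tag count does not report its protein. Ddit3, which encodes the death-linked factor CHOP, had no cluster in any of the 3 tables, with tags at 0 of its 8 CATG sites. One tag matches the reverse complement of its 3′ end, but it belongs to Mars (chr10:127296221-127311786, minus strand), whose end overlaps that of Ddit3 (chr10:127290774-127296288, plus strand). That tag counted 147, 165 and 111 copies at days 0, 1 and 2 and was not read as Ddit3.

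The promoters of the members were searched for elements through which Atf6 and Xbp1 are known to act, as a description of sequence and not of binding. The C/EBP-ATF element and the bare CCAAT box were searched besides these. Since members and elements were both taken from what is known of this response, the shares below are not a test of enrichment. The windows run from 250 bases before to 50 after the annotated start, from RefSeq on GRCm38.p6, and all 10 members were found among 32851 promoters. The ER stress response element, which is CCAAT and CCACG with 9 unspecified bases between them, on either strand, was found in 3 of 10 (Calr, Hsp90b1 and Hspa5) and in 0.119% of all promoters. The second such element, ATTGG and CCACG with 1 unspecified base between them, was found in Herpud1 and in 0.0365% of all promoters. The fixed letters of each motif are in capitals.
Calr: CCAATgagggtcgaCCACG
Hsp90b1, nearer site: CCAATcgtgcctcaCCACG
Hsp90b1, farther site: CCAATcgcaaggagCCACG
Hspa5: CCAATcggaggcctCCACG
Herpud1: ATTGGgCCACG

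The Calr motif lies at chr8:84847075-84847093 on the plus strand, 143 bases before the start. Those of Hsp90b1 lie at chr10:86705533-86705551 on the plus strand and chr10:86705638-86705656 on the minus strand, 88 and 193 bases before it. The Hspa5 motif lies at chr2:34772025-34772043 on the plus strand, 46 bases before the RefSeq start. The GENCODE M21 transcript used for its tags starts earlier, at chr2:34771970, so by that annotation the motif lies within the gene. The Herpud1 motif lies at chr8:94386377-94386387 on the plus strand, 41 bases before its start. On the gene strand, the 3 genes that carry the first element did not share a direction at day 1 over day 0. Calr stood at a log2 ratio of 0.97, Hspa5 at 0.75 (-0.07 to 1.62) and Hsp90b1 at -0.61. With opposite-strand tags added, Hspa5 stood at -0.14 and Hsp90b1 at 0.11. Whether the element bears on these ratios was not tested. The unfolded protein response element TGACGTGG was found in 0 of 10 members and in 0.676% of all promoters. The C/EBP-ATF element TGATGNAAN was found in Herpud1 and in 3.95% of promoters. The CCAAT box, which is contained in the first element and in reverse in the second, was found in 9 of 10 members (all but Xbp1) and in 37.4% of promoters.

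Genes around the members in the same pathways were described by 7 lists, of which 182 genes were tested. At the same threshold 3 of them (1.65%) were called at day 1 over day 0, 8 (4.4%) at day 2 over day 0 and 3 (1.65%) at day 2 over day 1. Over all clusters the shares were 2.79, 6.44 and 2.90 percent, as given above. With the ratio minimum lowered to 1.5 the lists had 15 (8.24%), 27 (14.8%) and 8 (4.40%), against 7.78, 11.9 and 6.56 percent of all clusters, so at days 1 and 2 over day 0 the order of lists and all clusters turns with the threshold. An unadjusted p under 0.05 was found for 37.4%, 39.6% and 36.8% of the listed genes, against 30.8, 36.3 and 29.3 percent. edgeR's exact test, at an adjusted p of 0.05 with no ratio minimum, called 0, 2 and 0 of the 182 with an assumed coefficient of variation of 0.2, and 0, 0 and 0 with 0.4. The list medians lay between -0.06 and 0.05 at day 1 over day 0, between -0.15 and 0.10 at day 2 over day 0, and between -0.44 and 0.11 at day 2 over day 1.

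Of 33 other chaperones and folding enzymes tested, 0 were called higher and 2 lower at day 1 over day 0. The share of all clusters called was 2.79 percent there and 6.44 percent at day 2 over day 0. Ganab, the catalytic subunit of the glucosidase that trims N-glycans for the calreticulin cycle, fell to 17.5 CPM at day 1, against 43.0 CPM at day 0, a log2 ratio of -1.29 (exact test, adjusted p = 9.3e-07). Ppib, the ER cyclophilin that isomerises prolines in procollagen, fell to 301.2 CPM at day 1, against 642.0 CPM at day 0, a log2 ratio of -1.09 (exact test, adjusted p = 1.1e-74). Fibroblast markers, 6 of 6 listed, summed to 1875.8 CPM at day 1 and 2949.6 CPM at day 0, with 1 log2 ratio positive and 5 negative. At day 2 they summed to 3268.4 CPM, above day 0, while Ppib had 404.4 CPM, below its day 0 level. The markers were mixed at day 2 over day 0, with 4 log2 ratios positive and 2 negative. Col1a2 (-0.45) and Col3a1 (-0.14, interval -0.29 to 0.01) were lower. Pdgfra (1.31), Lum (1.16), Dcn (0.62) and Col1a1 (0.20) were higher. The part of fibroblasts in the Ppib ratio was not tested. From the list 1 gene, Ero1l, was called, and lower, at day 2 over day 0. This oxidase, which recharges disulphide isomerases, had 59.9 CPM at day 2 and 127.6 CPM at day 0, a log2 ratio of -1.09 (exact test, adjusted p = 4e-15). It was lower by about as much at day 2 over day 1, with 59.9 against 130.5 CPM, a log2 ratio of -1.12. Canx and Hyou1 lie outside the naming rule and were chosen after their values were seen. Canx, the membrane-bound counterpart of calreticulin, had 752.2 CPM at day 1 and 580.5 CPM at day 0, a log2 ratio of 0.37 (0.28 to 0.47), and 757.0 CPM at day 2. Hyou1, the Grp170 co-chaperone of BiP, had 28.3 CPM at day 1 and 17.4 CPM at day 0, a log2 ratio of 0.69 (0.16 to 1.25).

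Of 27 genes of ER-associated degradation, 0 were called in any of the 3 comparisons by the exact test, with 7, 8 and 6 at an unadjusted p under 0.05. Such a p was found for 30.8, 36.3 and 29.3 percent of all clusters, and 6.44 percent were called at day 2 over day 0. Vcp, the ATPase that extracts substrates from the membrane, had 769.7 CPM at day 1 and 484.9 CPM at day 0, a log2 ratio of 0.67 (0.57 to 0.77), which is under 2-fold. The ubiquitin-conjugating enzyme Ube2j2 had 113.8 CPM at day 1 and 167.1 CPM at day 0, a log2 ratio of -0.55. Of 20 sensors and regulators, 1 was called, at day 2 over day 0: Bcap31, a membrane protein of ER quality control, fell to 86.0 CPM at day 2, against 188.8 CPM at day 0, a log2 ratio of -1.13 (exact test, adjusted p = 1.2e-23). Nfe2l1, an ER-anchored factor that induces proteasome genes, had 366.6 CPM at day 1 and 256.6 CPM at day 0, a log2 ratio of 0.51. Ppp1r15a (Gadd34), a phosphatase subunit that reverses eIF2α phosphorylation, had 54.7 CPM at day 1 and 28.8 CPM at day 0, a log2 ratio of 0.92 (0.52 to 1.33, exact test, adjusted p = 3.8e-05), which is under 2-fold. At day 2 it had 51.8 CPM, a log2 ratio of 0.84 over day 0. Ppp1r15a and the 3 sensors themselves, also chosen after their values were seen, were not called. Atf6 had a log2 ratio of 0.29 at day 1 over day 0 (-0.06 to 0.64), Eif2ak3 (Perk) one of 0.01 (-0.81 to 0.83), and Ern1 (Ire1) counted 11 tags at each of the 3 days.

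Of 30 target genes of Atf4, 0 were called at day 1 over day 0 by the exact test, with 11 at an unadjusted p under 0.05, and 3 were called lower at day 2 over day 0. Among all clusters, 30.8 percent had such a p at day 1 over day 0, and 6.44 percent were called at day 2 over day 0. The glycyl-tRNA synthetase Gars had 230.9 CPM at day 1 and 250.6 CPM at day 0, a log2 ratio of -0.12 (-0.28 to 0.04), and the transcription factor Cebpb stood at 0.03 (-0.15 to 0.20). Psat1, an enzyme of serine synthesis, fell to 9.9 CPM at day 2, against 30.2 CPM at day 0, a log2 ratio of -1.59 (exact test, adjusted p = 1.1e-06). The alanyl-tRNA synthetase Aars had 36.7 CPM at day 2 and 112.3 CPM at day 0, a log2 ratio of -1.61, but its tags also match Exosc6 and cannot be assigned to 1 of them. Yars, the tyrosyl-tRNA synthetase, counted 6 tags at day 2 and 31 at day 0, a log2 ratio of -2.23 (exact test, adjusted p = 0.00046), and lies under the level set for naming. At day 2 over day 1 the list's median log2 ratio was -0.44, with 9 positive and 21 negative, and 1 gene, Aars, was called. Atf4's own log2 ratio in that comparison was -0.13, with an interval that crossed 0.

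For the lists of other secretory steps, the shares of all clusters called were again 2.79, 6.44 and 2.90 percent in the 3 comparisons. An unadjusted p under 0.05 was found for 30.8, 36.3 and 29.3 percent of all clusters. Of 23 genes of ER entry and glycosylation, 0 were called at day 1 over day 0 by the exact test, with 12 at an unadjusted p under 0.05. Spcs1, a signal peptidase subunit, had a log2 ratio of 0.17 (0.04 to 0.31) and Dad1, a subunit of the oligosaccharyltransferase, one of -0.02 (-0.16 to 0.12). Of the same 23 genes of ER entry and glycosylation, 1 was called at day 2 over day 0, Srp54a of the signal recognition particle, with 3 tags at day 2 and 25 at day 0, named after its value was seen. For day 2 over day 1 Stt3a, a catalytic subunit of the oligosaccharyltransferase, rose to 110.6 CPM at day 2, against 45.7 CPM at day 1, a log2 ratio of 1.27 (exact test, adjusted p = 3.7e-16). Of 29 genes of ER to Golgi transport, 0 were called in any comparison, with 10, 12 and 10 at an unadjusted p under 0.05. The cargo receptor Tmed2 had 220.5 CPM at day 1 and 346.6 CPM at day 0, a log2 ratio of -0.65 (-0.80 to -0.50). Cope, a subunit of the COPI coat, had 291.9 CPM at day 1 and 316.0 CPM at day 0, a log2 ratio of -0.11 (-0.25 to 0.03).

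Of 20 heat shock genes of the cytosol, 1 was called higher at day 1 over day 0 and 2 at day 2 over day 0. The shares of all clusters called either way were 2.79 and 6.44 percent. Hspa1a, the inducible Hsp70, rose to 52.8 CPM at day 1, against 22.7 CPM at day 0, a log2 ratio of 1.21 (exact test, adjusted p = 1.7e-07), and was at 48.1 CPM at day 2. Cryab, a small heat shock protein abundant in muscle, rose to 527.8 CPM at day 2, against 263.4 CPM at day 0, a log2 ratio of 1.00 (exact test, adjusted p = 4e-54). Skeletal muscle markers, 6 of 6 listed, summed to 16456.8 CPM at day 2 and 7860.3 CPM at day 0, and their part in the Cryab ratio was not tested. At day 2 over day 1 the exact test called 0 of the heat shock genes, with 11 at an unadjusted p under 0.05. Such a p was found for 29.3 percent of all clusters. Hsp90ab1, the constitutive cytosolic Hsp90, stood there at a log2 ratio of -0.16 (-0.23 to -0.10) and the J-domain protein Dnaja1 at -0.04 (-0.15 to 0.07).

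**Figure D4:**
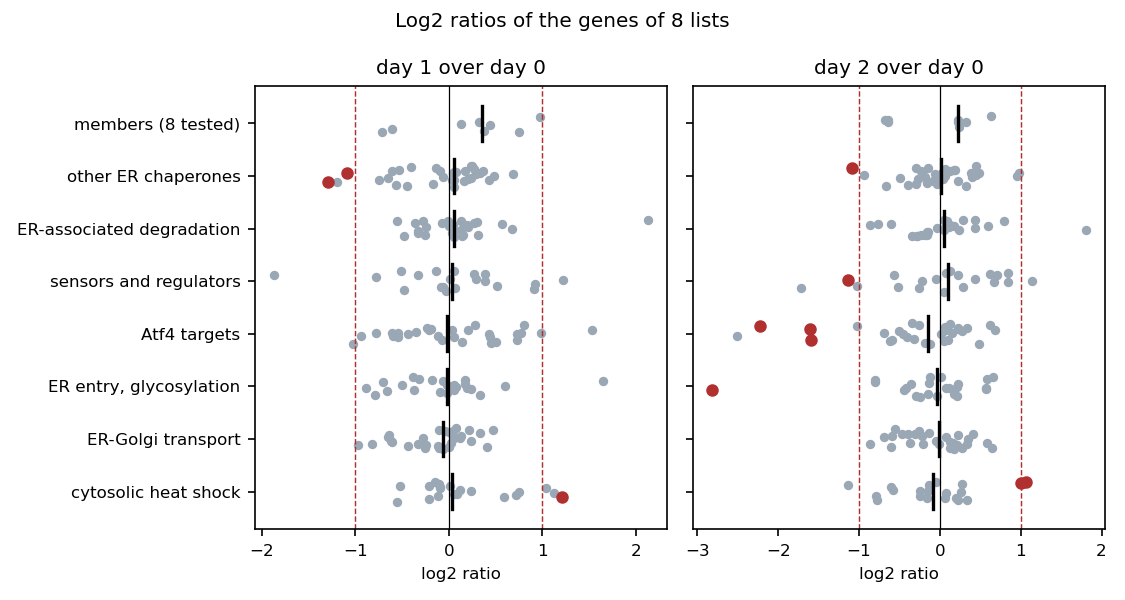
Log2 ratios of the members and of the genes of 7 related lists at day 1 over day 0 and day 2 over day 0. Each dot is a gene, the black bar is the list's median, dashed lines mark a 2-fold ratio, and red dots passed both the adjusted p of 0.001 and the 2-fold minimum. The 2 panels have horizontal axes of different range. No member is red, and most red dots lie below 0 except in the heat shock list.

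Cell type markers moved between the libraries beside the members. Inner root sheath keratins and trichohyalin, 7 of 7 listed, summed to 42107.0 CPM at day 0, 62071.0 at day 1 and 24579.2 at day 2. Hair shaft keratins, 5 of 6 listed, summed to 4477.8, 6403.5 and 4406.7 CPM. Both sums were highest at day 1 and lowest at day 2, as was Xbp1, whose days 0 and 1 overlapped within their counting intervals. The hair shaft sum was lowest at day 2 through Krt35, with 1410.5, 1021.4 and 330.9 CPM. The other 4 hair shaft keratins had positive log2 ratios at day 2 over day 0. Adipocyte markers, 4 of 4 listed, summed in the same order, with 446.1, 497.9 and 340.5 CPM. Of these, Cidec had that order, while Adipoq and Plin1 were highest at day 0 and Lep at day 2. The epidermal sum given above was lowest at day 0 and highest at day 1, with day 2 between, which is the order of Calr. Of its markers, Krt10, with 6339.0, 9936.1 and 8440.9 CPM, and Lor had that order. Krt5, Krt14 and Krt1 were highest at day 2. In red cell markers, tags do not separate the 2 alpha or the 2 beta globin copies. These markers summed to 1798.3 CPM at day 0, 1600.3 at day 1 and 140.3 at day 2, with day 2 lowest as for Xbp1. Hsp90b1 days 1 and 2 did not differ beyond counting error (log2 ratio of day 2 over day 1 -0.07, interval -0.47 to 0.33). Macrophage markers, 6 of 7 listed, summed to 240.3, 261.8 and 552.8 CPM. Sebocyte markers summed to 969.7, 889.8 and 1240.1 CPM, and endothelial markers to 64.3, 62.1 and 98.8 CPM. Pigment cell markers summed to 129.0, 246.1 and 293.9 CPM. All of these sums were highest at day 2, which is the order of neither Calr nor Xbp1. Of 7 plasma and B cell markers, Igj, Mzb1 and Pou2af1 were not listed, and Cd79a, Cd79b and Ighm had too few tags to test. The sum of that list, 858.4, 849.6 and 842.3 CPM, was almost all Sdc1, which keratinocytes also express. The part of these cell types in the members' ratios was not tested.

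The genes nearest to Hspa5 were sought among 5085 named genes at 20 CPM or more in each library, by distance in the pair of log2 ratios at day 1 and day 2 over day 0. With only 3 libraries many genes lie close, and the Hspa5 ratios carry wide intervals, so the order is a description. Tax1bp3 lay nearest, with log2 ratios of 0.74 and 0.26 and a distance of 0.023. Tmbim1 (0.73 and 0.22), Abhd17a (0.78 and 0.24), Nudt18 (0.76 and 0.26) and Arhgef37 (0.77 and 0.21) followed.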

How the data were processed

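Per the labels' protocols, cDNA made on oligo(dT) beads was cut with NlaIII, and MmeI released the 17 bases after CATG. Per the file headers, the deposited tables give for each UniGene cluster its raw tag count, a TPM value, and the copy number of each tag by CATG site. The deposited TPM is that count per 1000000 of all tags the authors kept, as dividing one by the other showed, and it was used for depth alone. The aligner and genome version of the authors, not given in the sources used here, decide which tags reached a cluster.

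Tags were matched exactly to GENCODE mouse release M21 transcripts, and a cluster was given a gene's name where that gene had 80% or more of the matched and 50% or more of the total tags in it. Of all clusters, 15076 were named so, 683 through tags shared by several genes, 218 by RefSeq accession alone, and 4618 stayed unnamed. Hspa5, Herpud1 and Xbp1 were found by their tags, since their descriptions hold no symbol. Counts were scaled by edgeR's TMM (factors 1.03, 0.94 and 1.03). Clusters with 15 or more tags over the 3 libraries were tested by an exact conditional binomial test, with Benjamini-Hochberg adjustment over all 13812, since edgeR's quasi-likelihood test needs replicates. Log2 ratios carry a pseudocount of 0.5 tags. Intervals are Clopper-Pearson at 95% and cover counting error only. A gene not listed in a library was tested as 0 tags. The script was tested on simulated data. R 4.3.3, edgeR 4.0.16, DESeq2 1.42.0, Python 3.11.15 and SciPy 1.17.1 were used.

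The members and the lists were chosen with earlier results of these data known. Named are all members, from each list the genes called (up to 6, with 20 CPM or more where higher) or otherwise the 2 with most CPM at day 0, and the 5 genes nearest to Hspa5. Alternatives covered the scaling, the tag minimum, the pseudocount, the ratio minimum, single sites and tags, an assumed spread, and, added after the data were seen, clusters of the opposite strand, both Hsp90b1 clusters and scaling without Calr.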

Additional observations from a re-analysis of the deposited data

How the results depend on the processing

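No member was called under another scaling, tag minimum or pseudocount, or under edgeR's exact test with an assumed spread. With a ratio minimum of 1.5, the numbers of members called were 1, 2 and 1 at day 1 over day 0, day 2 over day 0 and day 2 over day 1. The Calr log2 ratio stayed between 0.84 and 0.98, between 0.62 and 0.68, and between -0.35 and -0.21 in the same order. Of 182 genes of the 7 lists, 3, 8 and 3 were called. At day 1 over day 0 this became 5 when scaled by assigned tags, 6 of the 122 genes left with site 1 alone and 6 of the 175 left with the leading tag alone. With a ratio minimum of 1.5 it became 15, 27 and 8. edgeR's exact test, which here also takes an adjusted p of 0.05 in place of 0.001 and no ratio minimum, gave 0, 2 and 0 of 182 with an assumed coefficient of variation of 0.2, against 29, 241 and 90 of 13812 clusters, and 0, 0 and 0 with 0.4, against 0, 6 and 2. Adding opposite-strand tags, chosen after seeing the data, turned Hspa5 to -0.14 at day 1 over day 0 and -0.28 at day 2 over day 0. For Hsp90b1, with its second gene-strand cluster included, it gave 0.11 at day 1 over day 0. At day 2 over day 0 it gave -0.03, and the Hsp90b1 call at a ratio of 1.5 was lost. There the gene strand's adjusted p (exact test) was 0.002 by kept tags and 0.0022 by tags outside hair and muscle, above 0.001. It was 0.00091 by assigned tags and 0.00084 by DESeq2 size factors. At day 1 over day 0 it fell to 0.00086 by kept and 0.00023 by assigned tags. For Xbp1 at day 2 over day 1 these scalings gave 0.0052 (kept), 0.0068 (assigned), 0.0033 (outside hair and muscle) and 0.00046 (DESeq2). At day 2 over day 1, ratios near 0 changed sign: Hsp90b1 was 0.05 when scaled by kept tags, 0.06 by assigned tags and 0.02 by tags outside hair and muscle genes. Pdia4 was 0.01 by kept and 0.03 by assigned tags, and Sdf2l1 was 0.01 by assigned tags. By its formula, another scaling shifts all log2 ratios of a comparison by almost the same amount. Scaling by assigned tags shifts the median of all clusters by -0.13 at day 1 over day 0 and 0.13 at day 2 over day 1. Scaling by kept tags shifts it by 0.11 at day 2 over day 1. The members' median at day 2 over day 1 was -0.13 in the main setting and 0.01 when scaled by assigned tags. Site 1 alone gives no value for Hspa5, Hsp90b1 and Atf4. No paired analysis was possible because each group has 1 library, and for the same reason no library could be left out. At these depths Hspa5, Herpud1 and Atf4 are limited by their counts.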
